A study of Mus musculus with 6 samples.

Results

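The genes described here encode the machinery that brings proteins made in the cytosol into mitochondria. They were chosen by name: every row of the deposited count table whose gene symbol begins with Tomm or Timm, together with Pam16, Dnajc19, Chchd4, Gfer, Mtx1, Mtx2, Pmpca and Pmpcb. The rule found 34 of 45808 rows and used no measured value. The libraries were made from T cells purified from the spleen of mice of C57BL/6 background aged 2 months, stimulated in culture with antibodies to CD3 and CD28 together with IL-2. One group of 3 libraries was wild type and the other group of 3 was labelled Drp1-/-, called KO here. Drp1, encoded by Dnm1l, is the dynamin-related GTPase that divides mitochondria. The way the deletion was made, the cells that carry it, and the sex and number of the mice were not given in the sources used here. The labels do not say that replicates came from separate mice or cultures, so p-values measure the spread between these libraries, which may be technical.

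Nearly all mitochondrial proteins are encoded in the nucleus and enter through the translocase of the outer membrane, the TOM complex, in which receptors hand precursor proteins to a channel. From there, small chaperones of the intermembrane space guide carrier proteins to the TIM22 complex, a disulfide relay folds cysteine-rich proteins, and the TIM23 complex with its PAM motor takes proteins with a cleavable presequence into the matrix, where a peptidase removes that presequence. Activated T cells enlarge their mitochondria as they grow and divide.

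Total counts ran from 24738017 to 34730475 per library. Values are CPM, the share of a library's counts by its total and TMM factor, as mean ± SD over 3 libraries. A change means an adjusted p under 0.05 in the edgeR quasi-likelihood test of KO against wild type with Benjamini-Hochberg adjustment over all 14209 tested genes. Log2 fold changes compare KO with wild type (positive values are higher in KO) and carry their standard error (SE). Dnm1l, the targeted gene, was lower in KO (log2 -0.32 ± 0.05 SE, adjusted p = 0.000728, edgeR), at 116.6 to 123 CPM in wild-type libraries, against 92.6 to 100.6 CPM in KO. Xist, the RNA expressed from an inactive X chromosome, had 0 to 3 counts in wild-type libraries, against 12950 to 16862 in KO libraries, and the Y-linked gene Uty was read in both groups, with a lower level in KO (log2 -0.88 ± 0.09). Sex composition and genotype therefore cannot be told apart in these groups. The first wild-type library differed most from its group, with a chi-square per gene of 11.9 and 13.2 against its 2 partners, which differed from each other by 2.54.

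Of the 34 import genes 31 passed the filter on low counts. Among these 18 rose in KO, 0 fell and 13 did not pass, where 26.7% of all tested genes rose, 26.1% fell and 52.9% changed in either direction. DESeq2 and limma-voom also called 0 members lower. Fits that corrected for GC content and length of transcripts, took the replicate number as a block, or did both called 1 lower, Tomm7. In the main fit 0 had a lower level at an unadjusted edgeR p under 0.05, Tomm7 being nearest (0.0608). The median log2 fold change over the 31 genes was 0.31, against 0.01 over all tested genes. The rises were of moderate size: 5 of the 31 tested members rose by at least 1.5-fold, where 8.36% of all tested genes rose and 7.38% fell that far. Among the genes that rose, 5 of the 18 members reached 1.5-fold, against 1188 of 3800 over all tested genes. All 3 KO libraries lay above all 3 wild-type libraries for 20 of the 31 genes, and below them for 1, where the shares of all tested genes were 32.5% and 30.8%. By position, 5 of 9 tested outer membrane genes (TOM subunits and metaxins) rose, with a median of 0.16, and 11 of 19 tested genes of the intermembrane space, inner membrane and matrix rose, with a median of 0.31. The single complexes described below hold too few genes to be read against the shares of all tested genes. The summed level of the 34 genes was 1387 to 1452 CPM in wild-type libraries, against 1672 to 1750 CPM in KO.

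**Figure D1:**
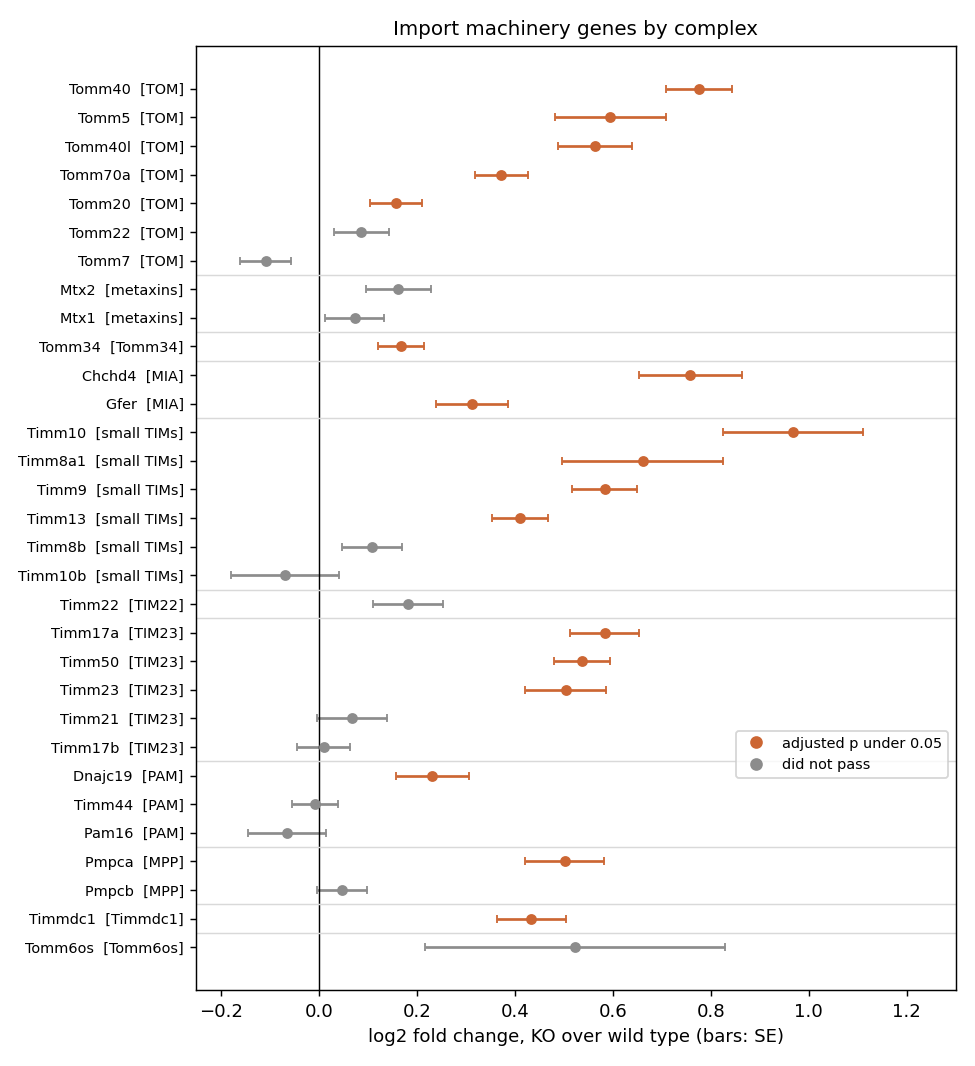
Log2 fold change of KO over wild type (x axis, bars are SE) for the 31 tested import genes, grouped by complex (y axis, complex in brackets); orange points passed an edgeR adjusted p under 0.05 and grey points did not. Timm10 has the highest value, 0.97, and Tomm7 the lowest, -0.11.

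In the TOM complex the channel and the Tom70 receptor rose, while the central receptor Tomm22 and the small subunit Tomm7 did not pass. Tomm40 (chromosome 7, 19701313 to 19715438, mm10, minus strand) encodes the barrel through which precursors cross the outer membrane. Its level was 44.8, 52.5 and 50.6 CPM in wild-type replicates 1, 2 and 3 and 82.2, 89.6 and 81.9 CPM in the KO replicates. The groups were far apart, with the highest wild-type library well under the lowest KO library. Tomm40 rose by 0.78 ± 0.07 on the log2 scale (1.71-fold, adjusted p = 3.74e-05, edgeR). Tomm40l, a paralog of the channel gene, had 24.7, 29.1 and 29.9 CPM in wild type, against 39.6, 43.1 and 41.5 CPM in KO (log2 fold change 0.56 ± 0.08, adjusted p = 0.000227, edgeR). In the annotation 64.3% of the exon bases of Tomm40l overlap Nr1i3 on the other strand, but Nr1i3 itself had 0 to 6 counts per library.

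The promoter of Tomm40 is shown because this gene had the smallest adjusted p of the import genes. The 250 bases before its RefSeq start, on the minus strand of chromosome 7 (chr7:19715430-19715679, build GRCm38.p6), are given 5′ to 3′, with the letters CCAAT in capitals.
Tomm40: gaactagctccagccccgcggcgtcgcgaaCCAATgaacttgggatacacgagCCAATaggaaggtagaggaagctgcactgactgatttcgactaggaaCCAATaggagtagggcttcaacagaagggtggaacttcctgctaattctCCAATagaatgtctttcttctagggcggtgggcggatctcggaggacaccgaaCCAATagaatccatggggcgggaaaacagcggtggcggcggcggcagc
The window held 5 copies of CCAAT, counting both strands. Of 32851 promoter windows of this length 0.213% held as many, and among the import genes with a window the next highest number was 3, in Timm17b. CCAAT was searched after the sequence had been seen, so this count is a description of 1 promoter. Over the import genes CCAAT was present in 8 of 31 windows of 300 bases (25.8%), against 41.1% of all genes with a window.

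Tomm70a, the receptor for carrier precursors that arrive bound to cytosolic chaperones, had the highest CPM of the import genes. It stood at 168, 178 and 180.2 CPM in wild type, against 213, 230.5 and 239 CPM in KO, a rise of 0.37 ± 0.05 (adjusted p = 0.000345, edgeR). Tomm20, the receptor for presequences, was read at 68.4, 66.7 and 64.5 CPM in wild type, against 77.1, 74.4 and 71.1 CPM in KO. That difference was small (log2 0.16 ± 0.05, adjusted p = 0.0275, edgeR), and its call was lost in 4 of the 6 fits that leave out 1 library, with adjusted p-values of 0.0693 without wild-type replicate 2, 0.110 without wild-type replicate 3, 0.110 without KO replicate 1 and 0.0773 without KO replicate 2. The call of Tomm20 was also lost after correcting for GC content and length of transcripts (log2 0.13, adjusted p = 0.0585, edgeR). Tomm22, the receptor that joins the others to the channel, had 103, 94.9 and 90.4 CPM in wild type, against 99.9, 102 and 104 CPM in KO, with overlapping groups (log2 0.09 ± 0.06, adjusted p = 0.223, edgeR). Without wild-type replicate 1, the highest of its group, Tomm22 passed at a log2 value of 0.14 (adjusted p = 0.0198). Only 2 of 16 alternative fits called Tomm22. After correcting for GC content and length of transcripts its value was 0.02 (adjusted p = 0.833, edgeR).

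Of the small subunits of TOM Tomm5 rose, Tomm7 did not pass and Tomm6 was not tested. Tomm5 was at 13.7, 17.4 and 14.4 CPM in wild type, against 24.1, 25.2 and 19.6 CPM in KO, a rise of 0.60 ± 0.11 (adjusted p = 0.00159, edgeR). Tomm7, a subunit that modulates the assembly and stability of the complex, had 117, 119 and 109.6 CPM in wild type, against 108.5, 108.9 and 102 CPM in KO. Here the 3 KO libraries lay just below the 3 wild-type libraries, and the difference did not pass (log2 -0.11 ± 0.05, adjusted p = 0.101, edgeR). After correcting for GC content and length of transcripts it did (log2 -0.14, adjusted p = 0.0315), and with library totals alone as the scaling the value was -0.03. Tomm6 had 3 to 9 counts per library and Tomm20l 0 or 1, so neither was tested. For Tomm6 75.95% of exon bases are shared with Gm21981 on the same strand, which had 0 to 2 counts, so the level of Tomm6 is uncertain.

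**Figure D2:**
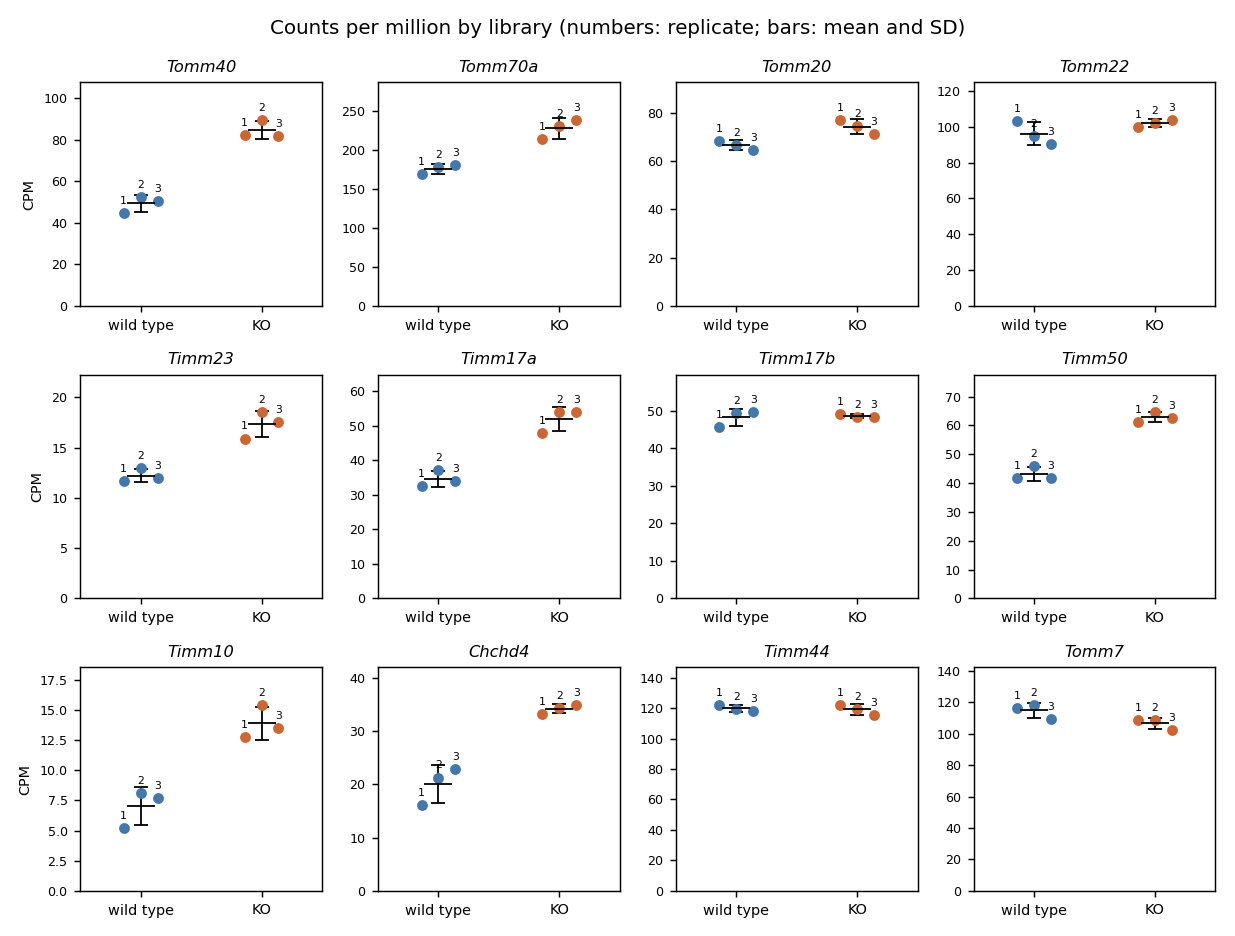
CPM (y axis, from 0) of 12 import genes for the 6 libraries, split by genotype (x axis); each point is a library with its replicate number, with the group mean and SD as bars. The mean of Tomm40 is 49.3 CPM in wild type, against 84.6 CPM in KO, while Timm44 averages 119.8 and 119.1 CPM.

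The metaxins Mtx1 and Mtx2, which work with the sorting machinery that inserts barrel proteins into the outer membrane, did not pass. Mtx1 was at 42.9 to 48.6 CPM in wild type, against 46.9 to 49.4 CPM in KO (log2 fold change 0.07 ± 0.06), and 30.1% of its exon bases overlap genes on the other strand. Mtx2 was at 38.6 to 43.4 and 42.2 to 47.1 CPM (log2 0.16 ± 0.07, adjusted p = 0.0632, edgeR). Both had their highest wild-type level in replicate 1. Without that library Mtx2 passed (log2 0.22, adjusted p = 0.00355), and without KO replicate 1 it did as well (log2 0.20, adjusted p = 0.0462). Only 3 of 16 alternative fits called Mtx2, and with the GC and length correction its value was 0.05 (adjusted p = 0.520, edgeR).

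Both genes of the disulfide relay rose. Chchd4 encodes the Mia40 oxidoreductase, which traps cysteine-rich proteins in the intermembrane space by giving them disulfide bonds. It had 16.1, 21.3 and 22.9 CPM in wild type, against 33.3, 34.4 and 35.02 CPM in KO. Wild-type replicate 1 was the lowest library, and the KO libraries were close together. The rise was 0.76 ± 0.11 (1.69-fold, adjusted p = 0.000278, edgeR), and 0.63 without wild-type replicate 1. Gfer, the sulfhydryl oxidase that reoxidises Mia40, had 19.7, 21.5 and 21.9 CPM in wild type, against 25.7, 28.3 and 24.7 CPM in KO, a smaller rise of 0.31 ± 0.07 (adjusted p = 0.00501, edgeR).

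Among the small TIM chaperones, which shield hydrophobic precursors in the intermembrane space, 4 of 6 tested genes rose, against 26.7% of all tested genes. Timm10 (chromosome 2, 84826997 to 84830213, mm10, plus strand) had the highest log2 fold change of the import genes. It was read at 5.24, 8.12 and 7.71 CPM in wild type, against 12.8, 15.4 and 13.5 CPM in KO, from 123 to 243 counts and 451 to 479 counts. Wild-type replicate 1 was well under the other wild-type libraries, and the groups did not overlap. Its rise was 0.97 ± 0.14 (1.96-fold, adjusted p = 0.000377, edgeR), and 0.81 without wild-type replicate 1. Timm9, the partner of Timm10 in the hexamer that carries metabolite carriers, had 19.0, 21.1 and 20.5 CPM in wild type, against 29.8, 32.1 and 29.2 CPM in KO (log2 fold change 0.58 ± 0.07, adjusted p = 0.000113, edgeR). Timm13, which forms the other hexamer with Timm8 proteins, had 45.1, 50.3 and 47.9 CPM in wild type, against 63.3, 65.6 and 61.6 CPM in KO (log2 fold change 0.41 ± 0.06, adjusted p = 0.000276, edgeR).

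The Timm8 genes are present as an X-linked, an autosomal and a barely read copy. Timm8a1, on chromosome X, had 38 to 58 counts in wild type and 73 to 116 counts in KO, which is 1.62, 1.81 and 1.84 CPM against 3.25, 2.35 and 2.75 CPM. It rose by 0.66 ± 0.16 (adjusted p = 0.00665, edgeR), and an annotated copy, Gm9797, matches 43.1% of its transcript and had 3 to 8 counts per library. Chromosome X held 476 tested genes, of which 105 rose and 121 fell, with a median of -0.03. Timm8b, read at 32.6 to 35.1 CPM in wild type, against 35.3 to 39.0 CPM in KO, did not pass (log2 0.11 ± 0.06, adjusted p = 0.161, edgeR). With the GC and length correction it did (log2 0.17, adjusted p = 0.0187). Only 3 of 16 alternative fits called Timm8b, and without KO replicate 2 the adjusted p was 0.46 (edgeR). Timm8a2 had 0 to 2 counts per library and was not tested. Timm10b, a subunit that links the chaperones to the TIM22 complex, had 8.28 to 10.1 CPM in wild type, against 7.96 to 9.43 CPM in KO (log2 fold change -0.07 ± 0.11), with overlapping groups and 10.5% of exon bases shared with a gene on the same strand.

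Timm9 is shown because, like Timm8a1, it has 2 copies of CACGTG, the E-box letters that Myc binds among other factors, and both lie near its start. Myc itself rose (log2 0.49 ± 0.11, adjusted p = 0.00397, edgeR). It had 131.6, 188.1 and 179.7 CPM in wild type, against 226.1, 249.2 and 227.4 CPM in KO, with wild-type replicate 1 well under the other wild-type libraries. A link between Myc and the import genes was not tested. The 250 bases before the RefSeq start, minus strand of chromosome 12 (chr12:71136676-71136925, GRCm38.p6), hold the first copy in capitals.
Timm9: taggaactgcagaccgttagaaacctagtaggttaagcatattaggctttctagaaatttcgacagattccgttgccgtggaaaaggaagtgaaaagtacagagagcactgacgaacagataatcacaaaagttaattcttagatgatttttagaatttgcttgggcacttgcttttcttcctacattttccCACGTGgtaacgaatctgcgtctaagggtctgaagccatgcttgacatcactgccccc
Its other copy spans the start and falls beyond these bases. Promoter windows running from 250 bases before to 50 bases after the start were found for 31 of the 34 genes. CACGTG, which reads the same on both strands, was present in 6 of these 31 (19.4%), against 8.09% of all genes with a window and 11.8% of tested genes with one. The 6 were Tomm20, Timm8a1, Timm9 and Timm10, which rose, Tomm6os, which did not pass, and Tomm20l, which was not tested. In the import genes that rose the share was 4 of 17 (23.5%), against 13.5% of all tested genes that rose. It was 1 of 11 (9.09%) in the import genes that did not pass, and Tomm40 had no copy. CCGGAAGT, the letters of an ETS factor site, was present on either strand in 8 of 31 windows (25.8%), against 9.25% of tested genes with a window. It was found at a like share in import genes that rose (4 of 17) and in those that did not pass (3 of 11). GCATGCGC, a core of the NRF1 site, was present in 1 of 31, that of Timm13, against 6.07% of tested genes. These counts describe letters in a window, not sites bound in these cells.

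Timm22, the channel that inserts carrier proteins into the inner membrane, was the member of the TIM22 complex in the list. It had 20.2, 21.9 and 21.0 CPM in wild type, against 22.7, 25.9 and 23.2 CPM in KO. The groups did not overlap, but the difference just missed the threshold (log2 0.18 ± 0.07, adjusted p = 0.0518, edgeR). With library totals alone it passed (log2 0.26, adjusted p = 0.0164), as it did among genes with at least 1 CPM in 3 libraries (adjusted p = 0.0493). Only 3 of 16 alternative fits called Timm22. With the GC and length correction its value was 0.09 (adjusted p = 0.255, edgeR), and without KO replicate 2 the adjusted p was 0.210.

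In the TIM23 complex, the inner membrane channel for presequence proteins, the channel-forming Timm23, the receptor Timm50 and Timm17a rose, whereas Timm17b and Timm21 did not pass. Timm23 had 11.7, 12.9 and 12.0 CPM in wild type, against 15.9, 18.5 and 17.6 CPM in KO (log2 fold change 0.50 ± 0.08, adjusted p = 0.000671, edgeR). Annotated copies elsewhere match 95.6% of its transcript. The copies listed in the table had 0 to 2 counts per library, so the level of Timm23 is uncertain where its reads match several places. Timm50, which receives presequences emerging from TOM, had 41.9, 45.9 and 41.9 CPM in wild type, against 61.2, 64.6 and 62.5 CPM in KO. This rise of 0.54 ± 0.06 (adjusted p = 7.48e-05, edgeR) had the smallest adjusted p after Tomm40. Timm21, which links TIM23 to TOM, was at 20.9 to 24.1 and 22.8 to 24.98 CPM (log2 0.07 ± 0.07), with overlapping groups.

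Timm17a and Timm17b encode alternative forms of the same channel subunit, so TIM23 complexes exist with one or the other. Timm17a (chromosome 1, 135295213 to 135313778, mm10, minus strand) was at 32.5, 37.2 and 34.0 CPM in wild type, against 47.9, 53.9 and 53.8 CPM in KO. Timm17b (chromosome X, 7899357 to 7908351, plus strand) was at 45.6, 49.5 and 49.7 CPM in wild type, against 49.2, 48.4 and 48.4 CPM in KO. Timm17a rose by 0.58 ± 0.07 (adjusted p = 0.000137, edgeR), while Timm17b had a log2 value of 0.01 ± 0.05 (adjusted p = 0.895) and overlapping groups. The promoters of this pair are set side by side, each as the 250 bases before the RefSeq start in GRCm38.p6 (chr1:135313738-135313987, minus strand, and chrX:7899086-7899335, plus strand), with CCAAT or its reverse complement in capitals.
Timm17a: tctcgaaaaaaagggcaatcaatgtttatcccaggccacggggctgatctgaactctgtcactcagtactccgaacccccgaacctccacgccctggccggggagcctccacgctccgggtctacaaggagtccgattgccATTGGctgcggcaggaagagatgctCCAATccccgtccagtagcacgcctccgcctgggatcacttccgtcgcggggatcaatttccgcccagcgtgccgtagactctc
Timm17b: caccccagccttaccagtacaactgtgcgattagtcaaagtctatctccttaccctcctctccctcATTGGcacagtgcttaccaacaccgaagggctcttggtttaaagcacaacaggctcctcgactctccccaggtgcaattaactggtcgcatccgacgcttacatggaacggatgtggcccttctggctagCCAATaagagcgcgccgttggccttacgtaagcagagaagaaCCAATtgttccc
Timm17a held 2 copies of CCAAT and Timm17b 3, and neither held CACGTG, CCGGAAGT or GCATGCGC in its window.

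The PAM motor pulls presequence proteins into the matrix with the help of mitochondrial Hsp70. Of its 3 members 1 rose, Dnajc19, and 2 did not pass, where 26.7% of all tested genes rose. Timm44, the tether between channel and motor, was at 122, 119 and 118 CPM in wild type, against 122, 119.7 and 115 CPM in KO. Its groups overlapped throughout (log2 -0.01 ± 0.05, adjusted p = 0.900, edgeR). Pam16, a regulator of the motor's J protein, had 16.6, 14.9 and 14.5 CPM in wild type, against 15.0, 15.0 and 13.8 CPM in KO (log2 fold change -0.07 ± 0.08, adjusted p = 0.518, edgeR). Dnajc19, a J protein of the inner membrane, had 13.8, 15.4 and 14.7 CPM in wild type, against 17.1, 18.1 and 16.5 CPM in KO, a rise of 0.23 ± 0.07 (adjusted p = 0.0227, edgeR). Its call was lost with the GC and length correction (log2 0.12, adjusted p = 0.201) and without wild-type replicate 3 (adjusted p = 0.0613), KO replicate 1 (0.0559) or KO replicate 2 (0.0933). A pseudogene copy, Dnajc19-ps, had 10 to 31 counts per library.

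Pmpca and Pmpcb encode the subunits of the matrix processing peptidase, which cuts off presequences after import. Pmpca had 94.1, 116 and 119 CPM in wild type, against 148, 162 and 156 CPM in KO, a rise of 0.50 ± 0.08 (adjusted p = 0.000636, edgeR), and 0.40 without wild-type replicate 1, its lowest library. In the annotation 20.4% of its exon bases overlap Inpp5e on the other strand, which rose too (log2 0.26). Pmpcb, the catalytic subunit, had 88.9, 85.3 and 81.0 CPM in wild type, against 87.3, 88.5 and 87.7 CPM in KO (log2 fold change 0.05 ± 0.05, adjusted p = 0.455, edgeR). Its KO values lay within the wild-type range.

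The remaining members carry the family names without being import subunits. Timmdc1, an assembly factor of respiratory complex I, had 23.2, 27.3 and 26.8 CPM in wild type, against 34.2, 34.4 and 36.0 CPM in KO (log2 fold change 0.43 ± 0.07, adjusted p = 0.000627, edgeR). Tomm34, a cytosolic cochaperone of Hsp70 and Hsp90, had the lowest coefficient of variation in wild type (1.42%), at 71.9 to 73.9 CPM, against 80.2 to 83.1 CPM in KO (log2 fold change 0.17 ± 0.05, adjusted p = 0.0117, edgeR). It missed the threshold without KO replicate 2 (adjusted p = 0.0524) and with the GC and length correction (0.0675). Tomm6os, an antisense RNA at Tomm6, had 7 to 24 counts in wild type and 24 to 29 counts in KO and did not pass (log2 0.52 ± 0.31, adjusted p = 0.176, edgeR). It passed in 1 of 15 alternative fits, that without wild-type replicate 2 (log2 0.96, adjusted p = 0.0291).

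Within a complex, the change of one gene relative to another was read from the ratio of their counts in each library, which does not depend on the scaling. The ratio of Timm17a to Timm17b was 0.713, 0.751 and 0.684 in wild type and 0.973, 1.11 and 1.11 in KO, a mean log2 difference of 0.57. The ratio of Pmpca to Pmpcb was 1.06, 1.36 and 1.47 in wild type and 1.69, 1.83 and 1.78 in KO (log2 difference 0.46, and 0.32 without wild-type replicate 1). For Timm10 to Timm10b it was 0.517, 0.949 and 0.931 against 1.36, 1.94 and 1.65 (log2 difference 1.08, and 0.80 without wild-type replicate 1). In all 5 ratios, those of Timm8a1 to Timm8b (log2 difference 0.55) and Tomm40 to Tomm40l (0.21) included, the KO libraries lay above the wild-type libraries. In each pair the first gene was one that rose, and except for Tomm40l the second did not pass. The direction of the ratios thus follows from the fold changes above, on the same counts, and is no separate result. How often other gene pairs separate in this way was not tested. Each ratio had an exact permutation p of 0.1, 2-sided, the smallest that 3 against 3 libraries allow, and 0.1 after Benjamini-Hochberg adjustment over the 5. This test can therefore not bring a single ratio below 0.05 with 3 libraries a group.

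**Figure D3:**
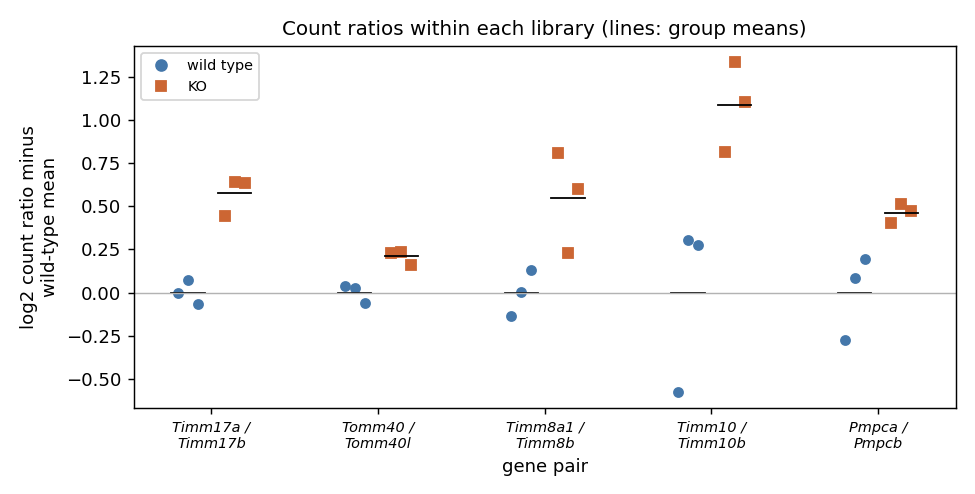
Log2 ratio of counts of 5 gene pairs (x axis) in each library minus the wild-type mean (y axis); circles are wild-type and squares KO libraries, and lines are group means. The KO libraries lie above the wild-type libraries in each pair, with a mean difference of 1.08 for Timm10 to Timm10b and 0.21 for Tomm40 to Tomm40l.

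Levels of different genes were compared as CPM per kb of the longest annotated transcript. In wild type the highest level per kb was that of Tomm7 (102 ± 4.21), followed by Timm8b (65.8 ± 2.56) and Tomm22 (61.3 ± 4.10), whose ranges of mean ± SD overlap. None of these 3 genes rose. Tomm40 was ranked 14 of 31, at 17.8 ± 1.45 CPM per kb in wild type and 30.6 ± 1.59 in KO, where it was ranked 11. Timm10 moved from rank 20 (10.2 ± 2.26) to rank 16 (20.2 ± 1.99) and Chchd4 from rank 27 (5.79 ± 1.03) to rank 22 (9.86 ± 0.24). Timm17a stood below Timm17b per kb in both groups, at 4.75 ± 0.33 against 20.3 ± 0.96 in wild type and 7.13 ± 0.47 against 20.4 ± 0.20 in KO. The longest transcript of Timm17a has 7280 bases, and over the mean transcript length its wild-type level per kb was 15.4 against 40.5 for Timm17b. The order depends on the length used: over the mean transcript length Timm44 was highest in wild type (107.5), ahead of Tomm7 (102), Timm8b was ranked 7, and Pmpca was highest in KO (133). Of the 10 highest genes in wild type 9 were the same with either length.

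**Figure D4:**
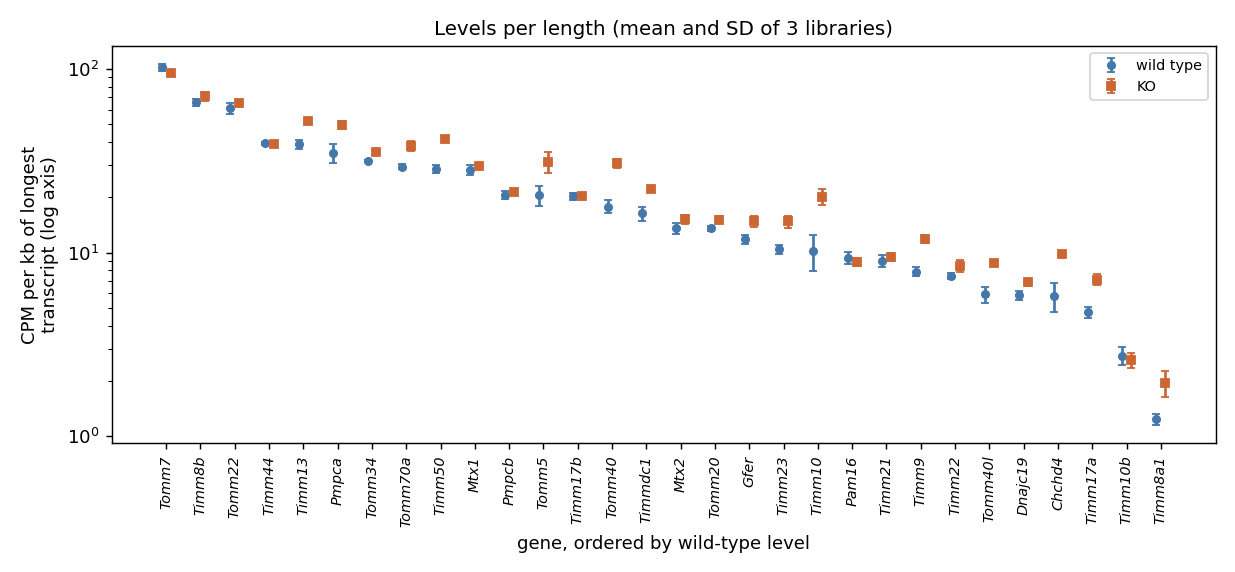
CPM per kb of longest transcript (y axis, log scale) of 30 tested import genes with a protein product (x axis, ordered by the wild-type level); circles are wild type and squares KO, with the mean and SD of 3 libraries. Tomm7 is highest in both groups, at 102 and 94.8, and Timm8a1 lowest, at 1.24 and 1.96.

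Libraries of a group agreed closely on most import genes. The median coefficient of variation over the tested members was 6.30% in wild type and 4.67% in KO, against 7.78% and 5.35% over all tested genes. The widest spreads in wild type among genes that rose were those of Timm10 (22.2%) and Chchd4 (17.8%), and in both wild-type replicate 1 was lowest. That library was the lowest of all 6 for 21 of the 31 genes, where it was lowest for 34.3% of all tested genes. Without it 20 members rose, the 18 among them, and 0 fell, and the median was 0.27.

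Other genes of import, listed from general knowledge, rose in part as well. These lists reach beyond import subunits, to 9 cytosolic chaperones, of which 7 rose, and to substrates of the disulfide relay. Of 44 such genes, all of them tested, 24 rose, 4 fell and 16 missed the threshold, where the median was 0.15. That is 54.5% higher and 9.09% lower, against 26.7% and 26.1% of all tested genes, and the lists that follow are too short to be read against those shares one by one. In the outer membrane list 3 of 7 rose and 0 fell, led by Samm50, the core of the sorting complex (log2 0.45 ± 0.05), and Mtx3, a metaxin (log2 0.47 ± 0.08). Among partners of TIM22, TIM23 and the motor 5 of 7 rose and 0 fell, led by Dnlz, a chaperone of mitochondrial Hsp70 (log2 0.58 ± 0.08), and Romo1, a TIM23 subunit (log2 0.44 ± 0.09). Of 6 genes for maturing presequences 3 rose, with Pitrm1, the protease that degrades cleaved presequences (log2 0.83 ± 0.07), and Parl, a rhomboid protease (log2 0.62 ± 0.07), ahead. There 1 fell, the inner membrane peptidase gene Immp1l (log2 -0.24 ± 0.09). For insertion into the inner membrane 2 of 4 rose, Letm1 (log2 0.62 ± 0.07) and Cox18 (log2 0.34 ± 0.07).

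Of 11 partners and substrates of the disulfide relay 4 rose and 3 fell, where 26.7% of all tested genes rose and 26.1% fell. This list and the next are also too short to be read against those shares. Cmc2 (log2 0.47 ± 0.07) and Aifm1, which anchors Mia40 (log2 0.29 ± 0.06), rose, and Cmc1 (log2 -0.20 ± 0.07), Chchd7 (log2 -0.19 ± 0.07) and Chchd3 (log2 -0.14 ± 0.05) fell. Of 9 cytosolic chaperones that carry precursors to TOM, 7 rose and 0 fell, with Hsp90aa1 going from 285 ± 12.7 to 505 ± 52.6 CPM (log2 0.82 ± 0.07) and Stip1, the Hsp70 to Hsp90 adaptor, from 194 ± 5.68 to 304 ± 23.8 CPM (log2 0.65 ± 0.06).

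**Figure D5:**
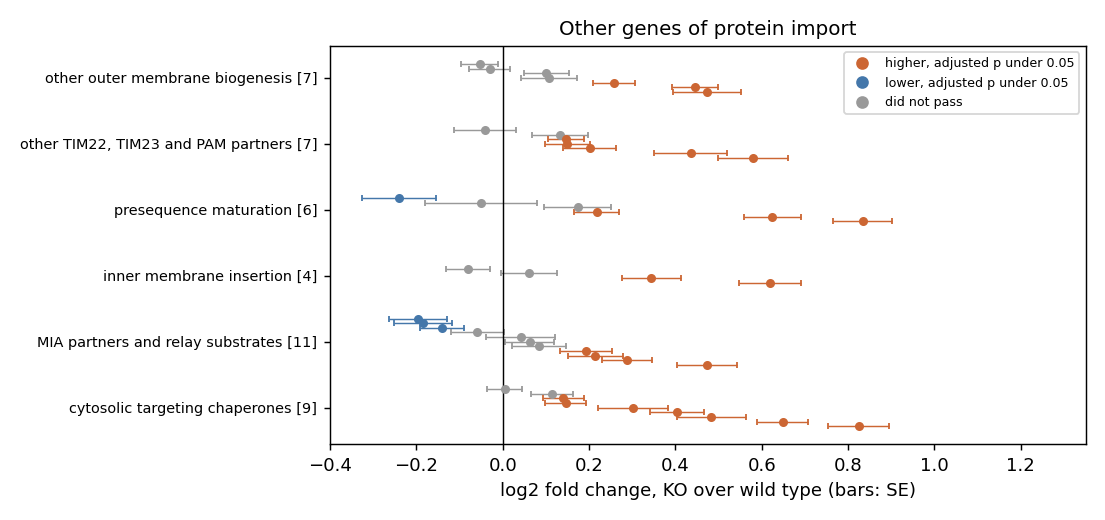
Log2 fold change of KO over wild type (x axis, bars are SE) of 44 other import genes in 6 lists (y axis, list sizes in brackets); orange points rose and blue points fell at an edgeR adjusted p under 0.05, and grey points did not pass. Pitrm1 has the highest value, 0.83, and Immp1l the lowest, -0.24.

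Some marker genes of cell types differed between the groups as well, where 26.7% of all tested genes rose and 26.1% fell. The marker lists are too short to be read against those shares one by one. Of 10 T cell markers 8 fell and 1 rose, with a summed level of 3697 to 3762 CPM in wild type, against 3254 to 3328 CPM in KO. All 5 gamma-delta T cell markers rose, with a summed level of 42.1 to 48.8 CPM against 99.8 to 119 CPM, and the 3 tested of 5 megakaryocyte and platelet markers rose, at 7.58 to 9.66 against 19.9 to 22.9 CPM summed. B cell markers (7, of which 1 rose and 1 fell) summed to 166 to 177 CPM and 162 to 169.5 CPM, and macrophage and dendritic cell markers (7, with 1 higher and 2 lower of 4 tested) to 28.9 to 31.7 and 22.8 to 25.2 CPM. Granulocyte markers (6, 0 tested) reached at most 0.476 CPM, with S100a8, S100a9, Elane and Camp at 0 counts, and erythroid markers (6, of which 1 was tested and rose) at most 1.88 CPM, with Hba-a2 at 0. Of 3 nuclear RNAs used as a sign of RNA quality 1 fell, Malat1, and their sum was 727 to 810.5 CPM in wild type, against 591 to 656 CPM in KO. The part of these differences in the import gene result was not tested. The strand setting of the count is unknown, so reads of genes that overlap on opposite strands cannot be told apart. Beside the overlaps given above, this touches among others Tomm6os (48.9% of exon bases), Tomm6 (27.6%), Pam16 (18.7%), Timm8b (15.6%) and Timm10b (11.6%). Other genes match parts of the transcripts of Gfer (32.3%), Tomm5 (16.4%) and Tomm7 (14.9%). In bulk RNA fewer cells of a type and less RNA per cell cannot be told apart.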

How the data were processed

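RNA of 6 libraries (3 wild type, 3 KO) was prepared per the labels' protocols with a stranded mRNA kit. Tools listed, without roles, per the submitters' processing notes were STAR 2.5.2, HTSeq 0.6.1, Cufflinks, DESeq2 1.12 and FastQC, with build mm10. The authors deposited raw counts per gene symbol. Annotation release, strand setting and the treatment of reads matching several places were not given in the sources used here. Of the rows 27 carried dates in place of symbols (0.241% of counts) and stayed in library totals.

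KO was compared with wild type by edgeR 4.0.16 in R 4.3.3 (TMM factors 0.949 to 1.03, filterByExpr, quasi-likelihood F test with 4 residual degrees of freedom, Benjamini-Hochberg adjustment over 14209 genes). A count of 3 corresponds to 0.0864 to 0.121 CPM. Count ratios were compared by an exact permutation test. The code of the main edgeR comparison was tested on simulated counts, but not that of the GC and length correction, the permutation test or the promoter search. Positions and lengths come from GENCODE M21 (GRCm38), matched by symbol for all 34 genes, copies from BLAST+ 2.17.0 (at least 95% identity over 100 bases), and promoters from RefSeq (GRCm38.p6). A planned description of protein sequences was not made.

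Members, lists and alternatives were chosen with earlier results of these data known. Values per library are given for channels, receptors, relay, motor and peptidase and for other members called with a log2 change of at least 0.4. In other lists the 2 members with the smallest adjusted p, and those called against the list's direction, are named. Alternatives were DESeq2 1.42.0 and its size factors, limma-voom (limma 3.58.1), library totals alone, no filter or 1 CPM in 3 libraries, a GC and length correction (spline, 5 degrees of freedom), a replicate block, chromosomes X and Y left out, each library left out, and stricter thresholds. Figures were drawn with matplotlib 3.10.9.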

Additional observations from a re-analysis of the deposited data

How the results depend on the processing

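For the 31 tested import genes 493 values were recomputed over up to 16 alternatives each: 464 kept their side of the threshold, among them values near 0 that changed sign without being called (such as Timm44, Pam16, Timm17b, Timm21 and Timm10b), 13 lost the call, 16 gained one and 0 called values changed sign. Of the 18 genes that rose, 15 kept the call in every refit that tested them, the exceptions being Dnajc19, Tomm20 and Tomm34, and Timm8a1 was not in the fit without X and Y genes. The number that rose was 15 to 20 with 1 library left out, 23 with library totals alone, 16 with the GC and length correction, 17 without genes of chromosomes X and Y, 15 at an adjusted p under 0.01 and 5 at 1.5-fold or more. The number that fell was 1 (Tomm7) with the GC and length correction and in both block fits described next, and 0 in the others. The median stayed between 0.26 and 0.39. With library totals alone 62.0% of all calls were higher, against 50.6%, and the median of all genes was 0.08. The 5 count ratios kept their direction in 35 alternative values, and NRF1 letters were in 0% of members within 150 bases of the start.

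The replicate numbers were not taken to pair the libraries, since the correlations of same-numbered libraries' deviations were 0.174, 0.125 and 0.0112. With the replicate number as a block 19 genes rose, Timm22 (adjusted p = 0.0262, edgeR) added to the 18, and 1 (Tomm7) fell, and with the block and the GC and length correction 17 rose and 1 fell. No paired analysis was made of the count ratios. Genes of few counts, such as Timm8a1 and Tomm6os, are limited by depth.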
